A study of Mus musculus with 6 samples.

Results

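The immunoglobulin variable gene segments were followed in poly(A)-selected RNA from mouse bone marrow. Members were the rows of the count table whose symbol began with Ighv, Igkv or Iglv, with 130 annotated pseudogenes left out. This gave 218 of 49315 genes, made up of 115 heavy chain segments (Ighv), 100 kappa segments (Igkv) and 3 lambda segments (Iglv). The WT group held 3 libraries from miR-181a2b2flox/flox (flox) mice (replicates 1, 3 and 4), in which the locus of miR-181a-2 and miR-181b-2 carries recombination sites, and the KO group held 3 libraries from miR-181a2b2-/- (KO) mice (replicates 2, 3 and 4). Both groups had received the HFSC diet and hindlimb ischemia, so no library stands for an untreated animal. The labels give no age, no sex and no Cre driver. They do not state that each library is a different mouse, and the p-values below therefore speak only of the spread among the 6 libraries, which may be technical.

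Each B cell builds its antibody genes by cutting and joining DNA. A heavy chain V segment is joined to a D and a J segment, and a light chain V segment is joined directly to a J segment, after which a single rearranged heavy chain and a single rearranged light chain are made by that cell and its descendants. Plasma cells, the antibody-secreting end stage that resides in marrow, carry far more immunoglobulin messenger RNA than other B cells, so a single plasma cell clone can add many reads to its own V segments. In bulk RNA a change in the number of cells using a segment and a change in RNA per cell cannot be told apart.

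Libraries held between 33861440 and 40359093 counts, and 3 counts, the limit that a count of 0 allows, equalled 0.0743 to 0.0886 CPM (counts scaled to a common library total). The 2 precursor genes of the deleted locus, Mir181a-2 and Mir181b-2, had 0 counts in all 6 libraries, so the table does not check the genotype. The extraction text names white adipose tissue, whereas the source label says bone marrow. No gene of 5 adipocyte markers exceeded 6.59 CPM in any library (Lep had at most 1 count), while 7 neutrophil genes together took 4.12% to 5.17% of counts in WT and 5.91% to 7.01% in KO. Xist lay above 1 CPM in WT replicates 3 and 4 and KO replicate 2 and at most at 0.220 CPM in the other 3 libraries, so both groups mix libraries with and without it.

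V segments end just after a conserved tyrosine and cysteine of the antibody fold, and that end is where joining takes place. The last 60 bases of the annotated transcript (GENCODE M21, GRCm38) are shown for segments whose level differed between genotypes, for leading segments of single libraries, for Ighv1-23 as the near copy of one of them (Ighv1-15) and for a known heavy and light chain pair, with the codons Tyr-Tyr-Cys or Tyr-Phe-Cys in capitals. These coordinates lie in the last exon of each segment.
Ighv6-3: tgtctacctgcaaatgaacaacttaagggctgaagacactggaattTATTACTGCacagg
Ighv1-66: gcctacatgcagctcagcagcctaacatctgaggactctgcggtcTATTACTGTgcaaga
Ighv1-5: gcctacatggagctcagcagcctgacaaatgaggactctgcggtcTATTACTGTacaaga
Ighv1-53: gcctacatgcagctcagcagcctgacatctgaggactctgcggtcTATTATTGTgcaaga
Ighv1-15: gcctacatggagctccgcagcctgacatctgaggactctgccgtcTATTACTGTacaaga
Ighv1-23: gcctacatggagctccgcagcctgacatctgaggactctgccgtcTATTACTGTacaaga
Ighv1-81: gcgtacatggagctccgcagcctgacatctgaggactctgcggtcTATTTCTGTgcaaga
Ighv11-2: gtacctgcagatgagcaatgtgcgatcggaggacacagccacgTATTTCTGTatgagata
Igkv4-59: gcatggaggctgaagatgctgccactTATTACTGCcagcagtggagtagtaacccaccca
Igkv1-110: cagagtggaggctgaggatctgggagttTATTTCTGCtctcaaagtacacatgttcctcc
Igkv14-126: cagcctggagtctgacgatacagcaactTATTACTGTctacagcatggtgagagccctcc
Igkv14-100: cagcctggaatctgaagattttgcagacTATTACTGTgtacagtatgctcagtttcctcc

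The heavy chain ends lie on the minus strand of chromosome 12, with Ighv6-3 at chr12:114391712-114391771, Ighv1-66 at chr12:115593110-115593169, Ighv1-5 at chr12:114513330-114513389 and Ighv1-53 at chr12:115158403-115158462. Ighv1-15 is at chr12:114657353-114657412, Ighv1-23 at chr12:114764450-114764509, Ighv1-81 at chr12:115920279-115920338 and Ighv11-2 at chr12:114048241-114048300. On chromosome 6, Igkv4-59 is on the minus strand at chr6:69438218-69438277, and Igkv1-110 (chr6:68271208-68271267), Igkv14-126 (chr6:67896583-67896642) and Igkv14-100 (chr6:68519418-68519477) are on the plus strand. The codon triplet was found in the last 60 bases of 207 of the 218 segments. The heavy chain segments with it had a median of 6 bases left after the cysteine codon (3 to 14), and the kappa segments a median of 23 (18 to 29). In a heavy chain the third hypervariable loop is built mainly from the D and J segments, whereas in a kappa chain much of it comes from the V segment.

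The segments resemble each other, which bears on how reads are assigned. Of the 218 transcripts, 43 shared no 50-base window with any other annotated transcript and 36 shared over 50% of theirs. Ighv1-15 and Ighv1-23 were 98.0% identical over 351 bases and their printed ends are the same run of letters. The sources used here do not state how reads matching several segments were counted, and values of segments with close copies are therefore uncertain.

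Nearly the whole annotated repertoire was detected. At least 1 count was seen in all 6 libraries for 183 of 218 segments, at least 10 counts in all 6 for 137, and 7 segments (6 heavy and 1 kappa) had 0 counts throughout. Heavy chain segments took 0.0289%, 0.0417% and 0.0394% of counts in WT replicates 1, 3 and 4 and 0.0415%, 0.0517% and 0.0401% in KO replicates 2, 3 and 4. These ranges overlapped, with WT replicate 1 the low library (exact permutation test of log2 shares, two-sided, p = 0.3, 0.4 after Benjamini-Hochberg adjustment over 4 shares).

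Kappa segments took 0.0423%, 0.0549% and 0.0471% of counts in WT and 0.0601%, 0.0767% and 0.0628% in KO. Every KO library lay above every WT library, and the mean was 1.38-fold higher in KO (0.0481% ± 0.00636 in WT, 0.0665% ± 0.00889 in KO, SD, n = 3 each, exact permutation p = 0.1, the smallest that 3 against 3 can give, adjusted 0.2). Lambda segments took 0.00290%, 0.00672% and 0.00573% in WT and 0.00526%, 0.00583% and 0.00636% in KO, with overlap (exact permutation p = 0.8). All V segments together took 0.0741%, 0.103% and 0.0922% of counts in WT and 0.107%, 0.134% and 0.109% in KO, without overlap and 1.30-fold higher in the mean (exact permutation p = 0.1, adjusted 0.2). WT replicate 1 was the lowest library for each of the 3 classes, and without it the log2 difference of the all-segment share was 0.25 in place of 0.38, a fall of over 1.5 times.

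**Figure D1:**
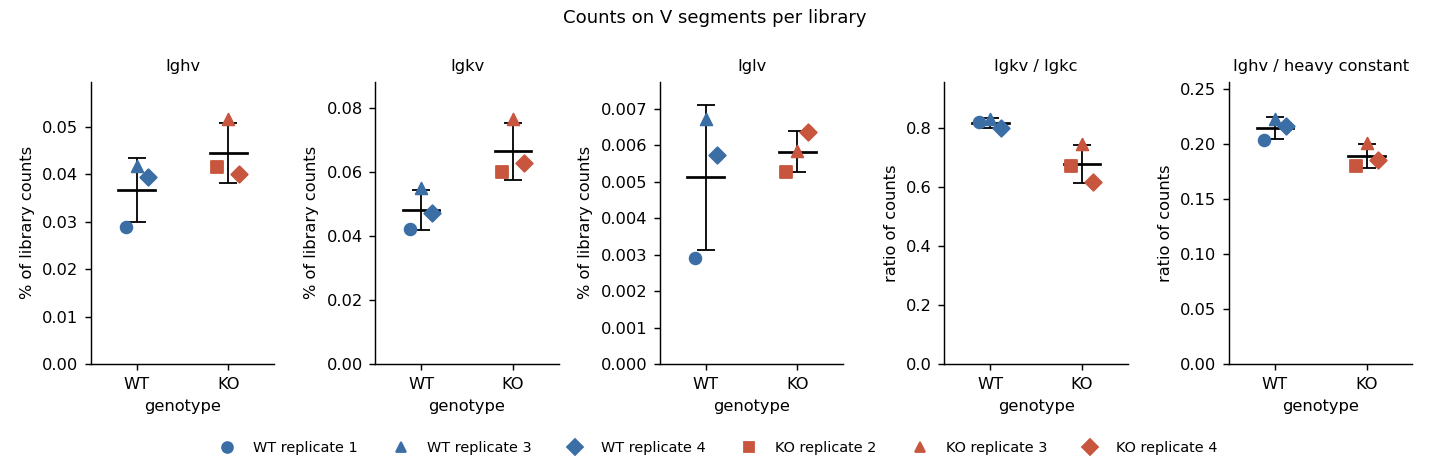
Share of each library's counts on Ighv, Igkv and Iglv segments (percent) and the ratios of Igkv to Igkc counts and of Ighv to heavy chain constant counts, by genotype. Points are libraries, bars are the mean and SD of 3 libraries. The 3 KO libraries lie above the 3 WT libraries for Igkv and below them for both ratios, while Ighv and Iglv overlap.

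The constant genes showed how these shares compare with whole antibody transcripts. Igkc, the kappa constant gene, rose in KO (log2 fold change 0.81 ± 0.12 SE, edgeR adjusted p = 0.0215), and its share of counts went from 0.0589% ± 0.00720 to 0.0981% ± 0.00738 (SD, n = 3 each). The ratio of Igkv to Igkc counts was 0.819, 0.832 and 0.7996 in WT and 0.671, 0.744 and 0.618 in KO. All KO libraries were below all WT libraries (exact permutation p = 0.1, adjusted 0.15 over 6 ratios), so kappa V counts were higher in KO by a smaller factor than Igkc counts. Of 11 constant genes tested Igkc alone passed in edgeR (0.938% of all genes were called higher), and in DESeq2 3 of the 11 with an adjusted p were higher (6.02% of all genes).

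Heavy chain V counts over the summed counts of the 8 heavy chain constant genes came to 0.204, 0.223 and 0.216 in WT libraries and 0.181, 0.201 and 0.185 in KO, also without overlap (exact permutation p = 0.1, adjusted 0.15). The makeup of that sum varied. Ighm took 46.0%, 30.9% and 30.6% of it in WT and 33.1%, 16.9% and 20.7% in KO. Igha took 22.3%, 51.8% and 39.8% in WT and 47.9%, 54.5% and 52.1% in KO. Counts were not scaled by gene length, and the part of this makeup in the ratio was not tested. Lambda V over lambda constant counts overlapped (0.720, 0.921 and 0.859 in WT, 0.822, 0.889 and 0.842 in KO, exact permutation p = 0.9). The ratio of light to heavy chain V counts was 1.56, 1.48 and 1.34 in WT and 1.57, 1.60 and 1.72 in KO, without overlap although WT replicate 1 and KO replicate 2 nearly met (exact permutation p = 0.1, adjusted 0.15). Its log2 difference of 0.16 was 0.10 without WT replicate 4. Kappa over lambda V counts overlapped (14.6, 8.17 and 8.23 in WT, 11.4, 13.1 and 9.87 in KO, exact permutation p = 0.6), whereas Igkc over the lambda constant genes did not (12.8, 9.04 and 8.83 in WT, 14.02, 15.7 and 13.5 in KO, exact permutation p = 0.1, adjusted 0.15).

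Use of single segments was then compared as counts per kb of exon, in percent of the class. The heavy chain segment with the highest mean use was Ighv1-81, a member of the large Ighv1 (J558) family located far from the D segments, with 8.77%, 9.23% and 7.18% of Ighv use in WT and 5.53%, 10.3% and 5.43% in KO. It was the most used heavy chain segment in all 3 WT libraries and in KO replicate 3, whereas Ighv6-3 (6.75%) led in KO replicate 2 and Ighv4-1 (7.77%) in KO replicate 4. Ighv3-6 followed, with 3.70%, 5.53% and 5.66% in WT and 6.74%, 3.46% and 4.55% in KO. Ighv1-26 was used at 3.77%, 6.24% and 4.17% in WT and 3.11%, 3.36% and 3.597% in KO, where all KO libraries lay below all WT libraries. These 3 were among the 8 most used heavy chain segments in each of the 6 libraries, while 24 different segments were among the 8 in at least 1 library.

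Among kappa segments Igkv1-110 was used most on average, at 8.37%, 11.5% and 7.91% in WT and 6.77%, 6.51% and 5.31% in KO. It was the most used kappa segment in every WT library and in none of the KO libraries, which were led by Igkv14-126 (7.30%, replicate 2), Igkv14-100 (7.07%, replicate 3) and Igkv1-117 (5.66%, replicate 4). Its level did not pass the test across all genes, with 37.5, 66.3 and 38.7 CPM in WT and 44.2, 55.3 and 38.1 CPM in KO (log2 fold change -0.05 ± 0.25 SE, edgeR adjusted p = 0.926). Its smaller share in KO thus stood beside a larger kappa total. Igkv1-110 and Igkv1-117 were 97.5% identical, and 50.9% of the 50-base windows of Igkv1-110 recurred in other transcripts.

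**Figure D2:**
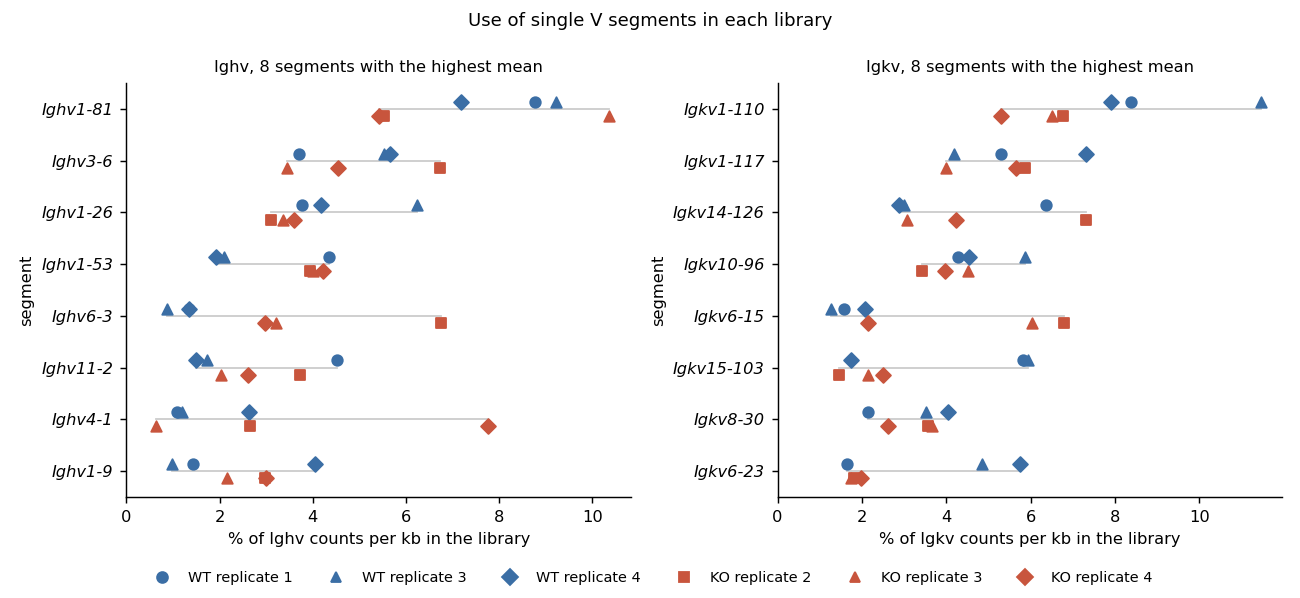
Use of the 8 Ighv and the 8 Igkv segments with the highest mean, as percent of the class's counts per kb in each library. Points are libraries, and grey lines span the lowest to the highest library. Ighv1-81 and Igkv1-110 lead in the WT libraries, and the span of Ighv4-1 runs from 0.640% to 7.77% within the KO group.

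Ighv11-2 and Igkv14-126 were both among the 8 most used segments of their classes by mean. As background, this heavy and light chain pair is the known receptor of B-1a cells that bind phosphatidylcholine. Ighv11-2 had 16.0, 8.93 and 7.10 CPM in WT and 19.5, 13.3 and 13.7 CPM in KO. Igkv14-126 had 25.5, 15.4 and 12.6 CPM in WT and 42.6, 23.3 and 27.1 CPM in KO. WT replicate 1 was the highest WT library and KO replicate 2 the highest KO library for both, and the groups overlapped. Neither passed the test (log2 fold change 0.54 ± 0.31 SE with edgeR adjusted p = 0.339, and 0.80 ± 0.33 SE with adjusted p = 0.215), and bulk counts do not show whether the same cells carried both. Ighv11-1, 98.9% identical to Ighv11-2 over 353 bases, stayed under 0.0891 CPM in every library.

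Evenness was summarised by the Shannon effective number, the number of equally used segments that would give the same diversity, with each library thinned to the smallest class total (9823 counts for Ighv, 14382 for Igkv). For heavy chain segments it was 49.3, 46.7 and 53.2 in WT and 49.4, 51.9 and 54.2 in KO. The groups overlapped (49.7 ± 3.27 and 51.8 ± 2.41, SD, n = 3 each, exact permutation p = 0.4, adjusted 0.533 over 8 measures). For kappa segments it was 42.2, 37.5 and 46.4 in WT and 48.2, 49.3 and 52.2 in KO. Every KO library was more even than every WT library (42.04 ± 4.44 and 49.9 ± 2.07, SD, n = 3 each, exact permutation p = 0.1, adjusted 0.2).

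The inverse Simpson number of kappa segments, which weights common segments more, was 28.3, 23.1 and 32.7 in WT and 33.1, 35.5 and 40.7 in KO. It did not overlap either, although WT replicate 4 and KO replicate 2 were close (exact permutation p = 0.1, adjusted 0.2). The share of the most used kappa segment was lower in each KO library (7.30%, 7.07% and 5.66%) than in each WT library (8.37%, 11.5% and 7.91%, exact permutation p = 0.1, adjusted 0.2). The difference of -2.57 percentage points was -1.46 without WT replicate 3. Without the most used segment of each library, and on counts that were not thinned, the kappa difference was 6.79 effective segments. With that segment and with thinning it was 7.90. Ordered by mean use, 17 heavy chain and 15 kappa segments were needed to reach 50% of their class.

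**Figure D3:**
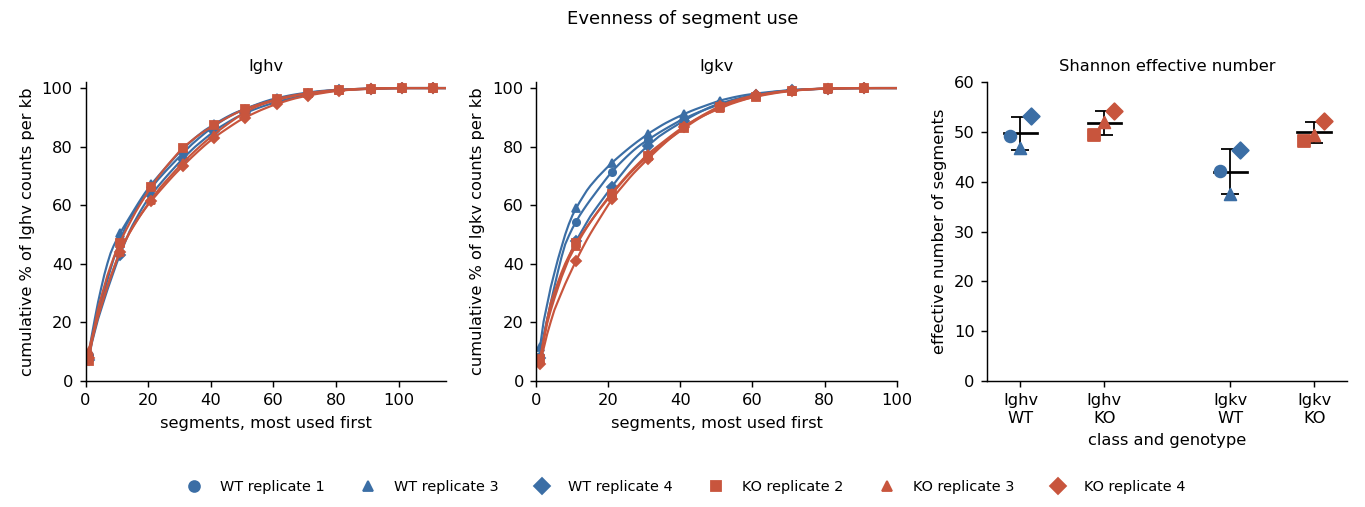
Cumulative share of counts per kb over segments ordered by use in each library (left and middle, percent), and Shannon effective number of segments by class and genotype (right; points are libraries, bars the mean and SD of 3 libraries). The Igkv curves of WT replicates 1 and 3 rise fastest, and the KO effective numbers of Igkv (48.2 to 52.2) lie above those of WT (37.5 to 46.4).

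Likeness of segment use was measured for each pair of libraries. The Morisita-Horn overlap, which is 1 for identical use and 0 for no segment in common, was 0.777 to 0.812 between WT libraries, 0.759 to 0.790 between KO libraries and 0.695 to 0.828 between genotypes for Ighv. For Igkv it was 0.783 to 0.788 between WT libraries, 0.737 to 0.811 between KO libraries and 0.665 to 0.835 between genotypes. The ranges within a genotype lay inside those between genotypes in both classes, but they cover 3 pairs each against 9. Medians within WT, within KO and between genotypes were 0.811, 0.784 and 0.782 for Ighv and 0.785, 0.804 and 0.753 for Igkv. These differences were not tested.

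V segments were far more variable between libraries than other genes of like level. Among genes with a mean log2 CPM of 1 to 5, the median SD within genotypes was 0.78 on the log2 scale for 123 V segments and 0.17 for 6057 other genes. The standard error of a segment's fold change was correspondingly large, with a median of 0.54 over the V segments tested and 0.15 over all genes tested.

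Of the 218 segments 165 passed the filter on low counts and entered the test of KO against WT across 16956 genes. With edgeR's quasi-likelihood test and Benjamini-Hochberg adjustment over all of these, 5 segments rose and 1 fell in KO with an adjusted p under 0.05 (3.03% and 0.606% of the segments tested). Over all genes tested 2.46% passed, 0.938% higher and 1.52% lower. With library totals in place of TMM scaling, 87 genes were higher and 403 lower over all genes, against 159 and 258, and 4 segments were higher and 1 lower.

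At an unadjusted p under 0.05, 31 segments were higher and 6 lower (18.8% and 3.64%), beside 11.7% higher and 12.2% lower over all genes. In 25 segments all KO libraries exceeded all WT libraries and in 5 the reverse held (15.2% and 3.03%), beside 14.4% and 14.7% over all genes. Positive log2 fold changes were found for 117 of 165 segments (70.9%), against 48.9% of all genes, and the median was 0.43 against -0.01. The direction was more one-sided among kappa segments, with 63 of 78 positive, a median of 0.59, and 16 higher and 0 lower at the unadjusted threshold. Among heavy chain segments 52 of 84 were positive, with a median of 0.28 and 15 higher and 6 lower at that threshold. The difference between the classes was not tested. Without WT replicate 4 the medians were 0.72 over all segments, 0.67 for Ighv and 0.83 for Igkv, and without KO replicate 3 the Ighv median was 0.18.

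**Figure D4:**
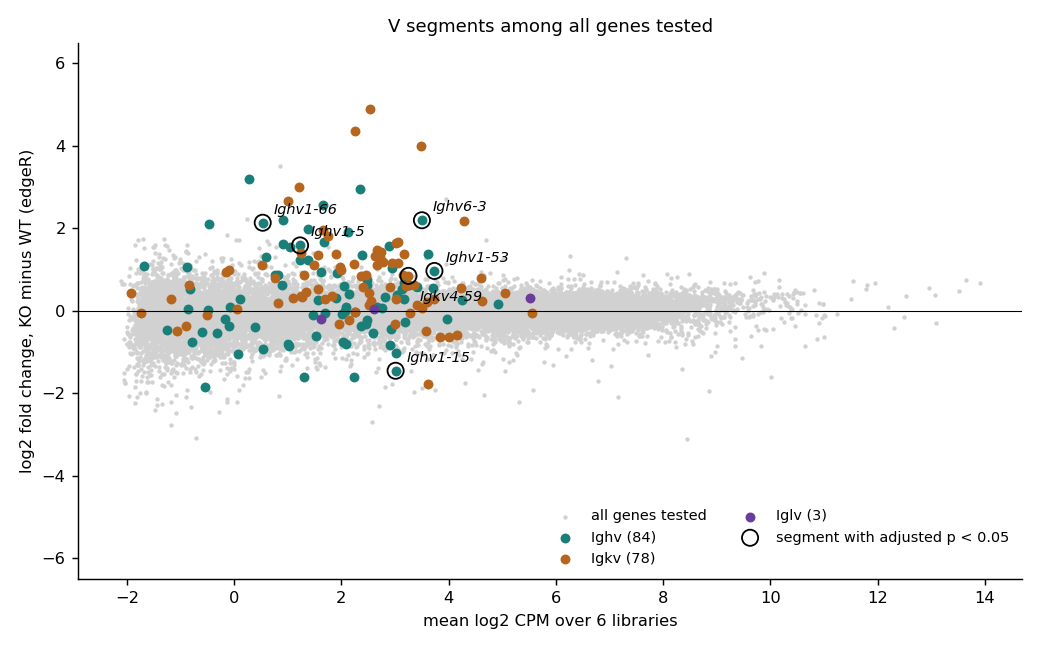
Log2 fold change of KO against WT (edgeR) over mean log2 CPM for all 16956 genes tested, with the 84 Ighv, 78 Igkv and 3 Iglv segments in colour. Circles mark the 6 segments with an adjusted p under 0.05. The segments scatter more widely than genes of like level, and 117 of the 165 lie above 0.

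Ighv6-3, a segment in the middle of the heavy chain locus and the leading heavy chain segment of KO replicate 2, rose the most among the 6. It had 3.70, 3.48 and 4.96 CPM in WT and 27.3, 16.3 and 12.1 CPM in KO. The lowest KO library was above the highest WT library by a wide margin, and the log2 fold change was 2.19 ± 0.31 (SE, edgeR adjusted p = 0.0252). Its nearest relative Ighv6-6, 91.0% identical, had overlapping levels of 13.4, 4.78 and 3.31 CPM in WT and 9.56, 16.8 and 4.45 CPM in KO.

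Ighv1-15 fell, with 11.9, 13.5 and 9.72 CPM in WT and 3.47, 5.08 and 4.24 CPM in KO. The groups were well separated (log2 fold change -1.46 ± 0.19 SE, edgeR adjusted p = 0.0125). Its close copy Ighv1-23 stayed at or under 0.215 CPM in all 6 libraries. Of the 6 fits that each left out 1 library, 5 called Ighv1-15, and the fit without KO replicate 4 did not.

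The other 3 heavy chain segments that rose belong to the Ighv1 family. Ighv1-66 had 0.607, 0.221 and 0.739 CPM in WT and 2.46, 2.60 and 1.84 CPM in KO (log2 fold change 2.13 ± 0.38 SE, edgeR adjusted p = 0.0318), levels that rest on 9 to 93 counts per library. Ighv1-5 had 1.42, 0.981 and 1.07 CPM in WT and 3.80, 4.39 and 2.21 CPM in KO (1.58 ± 0.29 SE, edgeR adjusted p = 0.0350). Ighv1-53 had 11.8, 8.19 and 7.03 CPM in WT and 15.7, 20.03 and 16.9 CPM in KO (0.96 ± 0.19 SE, edgeR adjusted p = 0.0429). In none of the 3 did the ranges of the genotypes overlap, and all KO libraries exceeded all WT libraries in 14.4% of all genes. The 3 were chosen by the test on these same values, so the separation is no further support. With a covariate for Xist, Ighv1-66 and Ighv1-5 no longer passed. In that fit calls over all genes fell from 417 to 209, and 4 segments were higher and 1 lower.

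Igkv4-59 was the kappa segment that passed, with 6.70, 6.89 and 6.72 CPM in WT and 15.4, 11.1 and 10 CPM in KO (log2 fold change 0.85 ± 0.17 SE, edgeR adjusted p = 0.0435). Of its 50-base windows 74.3% occurred in other transcripts. Its nearest relative Igkv4-70 (97.5% identical) was high in the same KO library, with 0.520, 0.392 and 0.620 CPM in WT and 10.8, 1.201 and 0.400 CPM in KO. How far shared reads set the value of Igkv4-59 was not tested. Igkv6-15 did not pass (6.12, 6.35 and 8.75 CPM in WT and 38.4, 44.3 and 13.4 CPM in KO, log2 fold change 2.17 ± 0.49 SE, edgeR adjusted p = 0.0835), although the groups did not overlap, and DESeq2 called it.

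Leaving out any 1 of the 3 WT libraries ended the call of Ighv6-3, of Ighv1-5 and of Igkv4-59, the last also without KO replicate 4 and with library totals as the scaling. Calls over all genes fell in the same fits, from 417 to 33, 199 and 37 without WT replicates 1, 3 and 4 and to 32 without KO replicate 4. The log2 fold changes in the 3 fits without a WT library were 2.10 to 2.37 for Ighv6-3, 1.48 to 1.75 for Ighv1-5 and 0.84 to 0.86 for Igkv4-59, close to those with all 6 libraries. Ighv1-66 lost its call on leaving out replicate 1 or 4 of WT or replicate 4 of KO, and Ighv1-53 on leaving out replicate 3 or 4 of either genotype. DESeq2 and limma called all 6 segments. The 6 had been picked by edgeR's test on the same counts, so these calls are no further support. Genes higher in KO made up 6.02% of all genes with an adjusted p in DESeq2 and 2.92% of those tested in limma. For genes lower in KO the shares were 5.36% and 3.31%.

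Several well expressed segments owed their level to 1 library. Of 75 segments with a mean of at least 5 CPM, 8 had over 50% of their summed CPM in a single library, 2 of them in WT replicate 3 and 1, 3 and 2 in KO replicates 2, 3 and 4. The same share among other genes of that level was not computed. Igkv14-100 had 52.9 CPM in KO replicate 3, 26.7-fold the median of the other 5 libraries, which held 1.70, 0.294 and 1.98 CPM in WT and 6.05 and 4.21 CPM in KO replicates 2 and 4. Igkv14-130 (27.5 CPM, 79.2-fold) and Ighv1-12 (23.1 CPM, 16.0-fold) were highest in the same library. Igkv14-130 also had 5.49 CPM in KO replicate 2, against 0.867, 0.0491 and 0.238 CPM in WT and 0.347 CPM in KO replicate 4. Igkv6-13 was highest in KO replicate 4 (32.5 CPM, 10.3-fold), with 4.04, 7.43 and 0.286 CPM in WT and 0.801 and 3.16 CPM in KO replicates 2 and 3.

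The WT group had such segments too. Igkv16-104 reached 47.8 CPM in WT replicate 3 (9.33-fold the median of the others) and Ighv7-1 reached 23.6 CPM there (5.39-fold). Of the 6 named here 0 passed edgeR's test (0.938% of all genes higher, 1.52% lower), and 1 was higher at an unadjusted p under 0.05 (11.7%). In limma 0 passed (2.92% and 3.31% of all genes). Their standard errors on the log2 scale ran from 1.02 to 1.91. They were chosen for a high value in 1 library, so a wide spread follows from the choice and these counts do not test it. DESeq2 gave 4 of them an adjusted p. It called 2, Igkv14-100 and Igkv14-130, higher in KO (adjusted p = 0.0192 and 0.0284), beside 6.02% of all genes. Without KO replicate 3 edgeR's log2 fold changes of these 2 went from 3.99 to 1.97 and from 4.90 to 2.97.

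**Figure D5:**
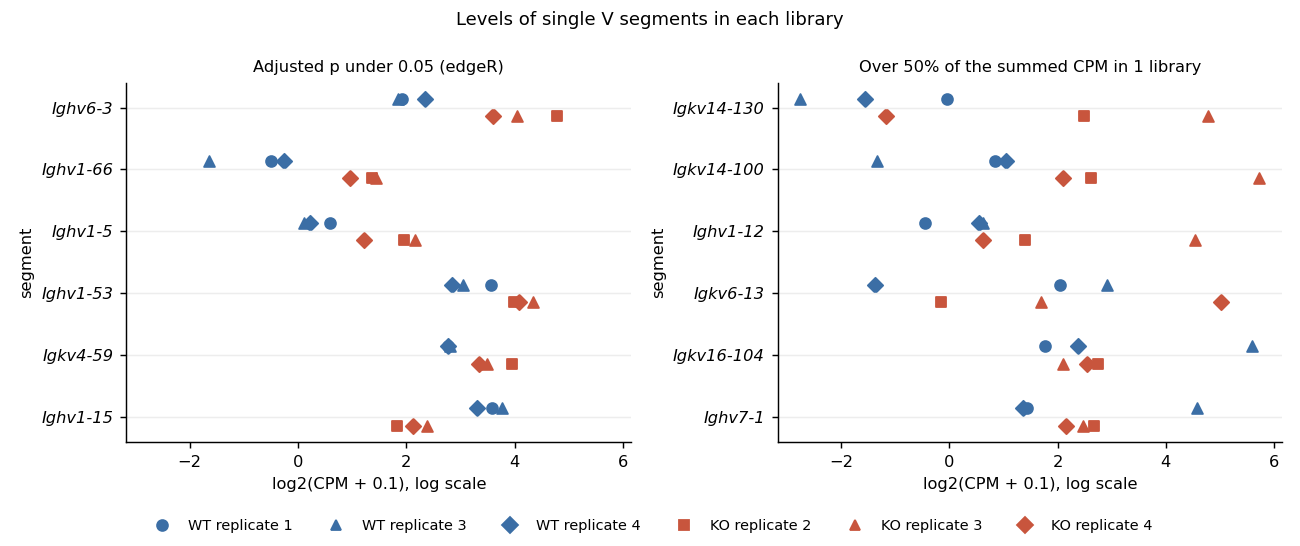
Levels of the 6 segments that passed edgeR's test (left) and of 6 segments with over 50% of their summed CPM in 1 library (right), as log2(CPM + 0.1). Points are libraries. The groups on the left do not overlap, and each row on the right has 1 point far above the rest.

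The mouse has only a few lambda segments. Iglv1 held 62.7%, 82.4% and 88.5% of lambda V counts per kb in WT and 78.5%, 86.8% and 86.8% in KO. It had 18.2, 54.9 and 49.0 CPM in WT and 41.96, 51.8 and 58.7 CPM in KO, WT replicate 1 being the low library (log2 fold change 0.32 ± 0.43 SE, edgeR adjusted p = 0.704). Iglv2 (0.05 ± 0.40 SE, adjusted p = 0.960 in edgeR) and Iglv3 (-0.19 ± 0.18 SE, adjusted p = 0.548 in edgeR) did not pass either. Iglv3 had 2.92, 3.31 and 3.36 CPM in WT and 2.64, 2.90 and 2.85 CPM in KO. All KO libraries thus lay narrowly below all WT libraries, as in 14.7% of all genes. Of the 3 lambda segments 0 had an unadjusted p under 0.05 in edgeR (11.7% of all genes higher, 12.2% lower). DESeq2 called 0 (6.02% of all genes higher, 5.36% lower) and limma 0 (2.92% and 3.31%).

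Segments were also grouped by family, which gathers segments of like sequence under the first number of the symbol. The Ighv1 family, with 54 segments, held 51.9%, 48.4% and 52.4% of heavy chain V counts in WT and 48.4%, 55.5% and 47.5% in KO. The families near the D segments overlapped likewise, with Ighv2 at 4.18% to 7.14% in WT and 4.89% to 8.09% in KO and Ighv5 at 7.63% to 13.0% and 6.002% to 8.58%. Of 28 families tested, none passed after adjustment (smallest adjusted p = 0.7 by exact permutation), and at an unadjusted threshold of 0.05 none can pass in this design.

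In 2 of the 28 families all KO libraries lay below all WT libraries. The same held for 14.7% of all genes tested, so the count does not set these families apart. Ighv8 held 5.24%, 6.64% and 5.64% of heavy chain V counts in WT and 2.68%, 4.45% and 3.51% in KO. Igkv9 held 2.97%, 5.12% and 3.71% of kappa V counts in WT and 2.55%, 2.81% and 1.61% in KO. Both had an exact permutation p of 0.1 and an adjusted p of 0.7, and without WT replicate 3 the Igkv9 difference was -1.01 percentage points in place of -1.61.

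Position along the locus was examined because distal heavy chain segments need locus contraction to be joined. The 38 Ighv segments nearest to the D segments (53.2 to 728.3 kb away) held 29.7%, 34.4% and 31.8% of counts in WT and 29.9%, 26.3% and 34.1% in KO, and the 39 farthest (1465.8 to 2474.7 kb) held 38.7%, 36.04% and 34.2% and 35.7%, 38.9% and 31.8%. The 38 between them held 31.7%, 29.6% and 33.97% in WT and 34.3%, 34.8% and 34.1% in KO, the one position class of Ighv without overlap (exact permutation p = 0.1, adjusted 0.8 over 8 measures). The nearest segment with at least 10 counts in every library was Ighv5-2 (log2 fold change 0.05 ± 0.42 SE, edgeR adjusted p = 0.962) and the farthest Ighv1-85 (1.90 ± 0.82 SE, edgeR adjusted p = 0.237).

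Kappa segments can be joined by deletion or, where they point the other way, by inversion. The 38 Igkv segments on the same strand as the J segments held 47.4%, 54.7% and 43.6% of kappa V counts in WT and 46.8%, 51.5% and 45.1% in KO (exact permutation p = 0.9), and the other 62 held the rest. The 33 nearest to the J segments held 23.9%, 23.7% and 28.0% in WT and 28.4%, 26.9% and 35.95% in KO, with overlap (exact permutation p = 0.2, adjusted 0.8). Igkv3-1 was the nearest (0.45 ± 0.58 SE on the log2 scale, edgeR adjusted p = 0.673) and Igkv2-137 the farthest (1.37 ± 0.54 SE, edgeR adjusted p = 0.187) with at least 10 counts in every library.

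Markers of the cells that carry V transcripts were set beside these values. Of 11 plasma cell genes 1 rose and 0 fell in edgeR, beside 0.938% and 1.52% of all genes, with a median log2 fold change of 0.08. DESeq2 called 2 of 10 higher (6.02% of all genes) and limma 1 of 11 (2.92%). Xbp1, a transcription factor of the secretory programme, had 148, 148 and 142 CPM in WT and 189, 206 and 247 CPM in KO (0.55 ± 0.11 SE, edgeR adjusted p = 0.0427), and Jchain, which links IgA and IgM multimers, had 120, 244 and 203 CPM and 321, 380 and 354 CPM (0.90 ± 0.24 SE, edgeR adjusted p = 0.0892). Irf4, a factor needed for plasma cell formation, had 30.7, 34.9 and 49.8 CPM in WT and 35.0, 11.8 and 11.3 CPM in KO (-0.99 ± 0.53 SE, edgeR adjusted p = 0.330), and the fold change of Pou2af1 was -0.51 ± 0.50 (SE, edgeR adjusted p = 0.587). Mzb1, Sdc1, Tnfrsf13b and Prdm1 had log2 fold changes of 0.02 to 0.08. Those of Fkbp11, Derl3 and Tnfrsf17 were 0.86 ± 0.38, 0.59 ± 0.21 and 0.27 ± 0.42 (SE, edgeR adjusted p = 0.212, 0.133 and 0.733). In all, 9 of the 11 were positive and 2 negative. Before adjustment edgeR had 3 higher (11.7% of all genes) and 0 lower (12.2%). All KO libraries lay above all WT libraries for 3 (14.4% of all genes) and below them for 0 (14.7%). The plasma cell list took 0.0424% to 0.0554% of counts in WT and 0.0669% to 0.0691% in KO, and Jchain and Xbp1 made up 64.3% to 72.2% of that sum in WT and 73.4% to 85.1% in KO. The other 9 genes took 0.0151% to 0.0196% in WT and 0.00999% to 0.0184% in KO, with overlap, so the separation of the sums rests on those 2 genes.

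For the 9 mature B cell genes edgeR and limma made 0 calls, and the median was -0.86. Before adjustment edgeR had 5 of the 9 lower (beside 12.2% of all genes), and DESeq2 called 5 lower (5.36% of all genes). All KO libraries lay below all WT libraries for 3 of the 9 (14.7% of all genes) and above them for 0 (14.4%). Their summed share was 0.0570% to 0.0822% in WT and 0.0460% to 0.0687% in KO. Of 15 B cell precursor and V(D)J recombination genes edgeR, DESeq2 and limma called 0. Before adjustment edgeR had 0 lower (12.2% of all genes), DESeq2 2 and limma 4, with 0 higher in each. The shares over all genes before adjustment were not computed for DESeq2 and limma. All 15 edgeR fold changes were negative, with a median of -0.58. For 1 of the 15 all KO libraries lay below all WT libraries (14.7% of all genes), and for 0 above them (14.4%). The summed share of these genes was 0.0462%, 0.0412% and 0.0673% in WT and 0.0536%, 0.0180% and 0.0188% in KO. KO replicate 2 lay inside the WT range and KO replicates 3 and 4 below it. Of the 3 factors that act at V promoters, Pou2f1, Pou2f2 and Pou2af1, edgeR called 0, with Pou2f1 lower when p is left unadjusted (12.2% of all genes). Pou2f1 had 44.4, 51.6 and 51.3 CPM in WT and 30.6, 39.8 and 29.3 CPM in KO (-0.56 ± 0.13 SE, edgeR adjusted p = 0.0519), and DESeq2 and limma called it lower, as they did 5.36% and 3.31% of all genes. Igha, the IgA constant gene, took 0.0316%, 0.0966% and 0.0725% of counts in WT and 0.110%, 0.140% and 0.113% in KO, without overlap but with an edgeR adjusted p of 0.223. Of 7 T cell genes and 4 erythroid genes the 3 tools called 0. Before adjustment edgeR had 0 of either list, and DESeq2 and limma each had 1 erythroid gene lower. By contrast, 3 of 7 neutrophil genes rose in edgeR (0.938% of all genes), 7 in DESeq2 (6.02%) and 5 in limma (2.92%). All 7 neutrophil genes were higher in edgeR before adjustment (11.7% of all genes), with all KO libraries above all WT libraries for each (14.4% of all genes). The part of cell composition, including the higher neutrophil share in KO, in the V segment values was not tested.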

How the data were processed

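The authors deposited raw read counts per gene for 6 poly(A)-selected libraries. The submitters' processing notes list Trimmomatic 0.36, STAR 2.5.2b, Subread 1.5.2 with featureCounts, and the build GRCm38. The sources used here name no annotation release, no strand setting and no handling of reads with several matches. Identifiers were matched to GENCODE M21 (48970 of 49315 had a symbol). Symbols of all 218 segments were also found in RefSeq, which lists 5 of them as pseudogenes. V promoters and recombination signals were not analysed here.

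All genes were fitted with edgeR 4.0.16 (R 4.3.3) with TMM scaling (factors 0.948 to 1.04), filterByExpr, a robust quasi-likelihood test and Benjamini-Hochberg adjustment at 0.05. CPM uses the total times the TMM factor. Group values per library were compared by exact permutation, two-sided, for which 0.1 is the smallest p. DESeq2 1.42.0 and limma 3.58.1 were alternatives. Depth was 33861440 to 40359093 counts. Floors cover counting error only. No pair of libraries agreed within sampling noise (chi-square per gene at least 30.3). The procedure was tested on simulated data.

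Named segments were the 8 most used per class, the Iglv segments, those past the threshold, up to 6 with a mean of at least 5 CPM and over 50% of it in 1 library, and the nearest and farthest with at least 10 counts in every library. Other genes came from fixed lists. The segments, lists and comparisons were chosen with earlier results of these data known, and the ratios to constant genes were added after seeing the data.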

Additional observations from a re-analysis of the deposited data

How the results depend on the processing

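Of 165 segments tested, 5 were called higher and 1 lower, beside 159 and 258 of 16956 genes. The segment counts moved to 13 higher of 211 with no filter on low counts (all genes 653 higher and 839 lower of 30403), to 21 higher and 3 lower of 165 with a replicate block (212 and 359 of 16956), and to 22 higher and 2 lower of 142 with an adjusted p in DESeq2 (834 and 743 of 13864). Leaving out each library gave 1 to 13 higher (1 on dropping WT replicate 1, 2 on dropping WT replicate 4 and 13 on dropping KO replicate 2) and 0 to 2 lower (2 on dropping either WT replicate 1 or 3, and 0 on dropping KO replicate 4). Calls over all genes moved in those fits as well. Dropping WT replicates 1, 3 and 4 gave 6, 56 and 13 genes higher with 27, 143 and 24 lower, and dropping KO replicates 2 and 4 gave 202 and 9 higher with 366 and 23 lower. Leave-one-out medians of the log2 fold change ran from 0.39 to 0.72 over all segments, from 0.18 to 0.67 for Ighv and from 0.56 to 0.83 for Igkv. The cause was not tested. The block uses numbers that the groups share only for replicates 3 and 4, whose deviations correlated at 0.21 and -0.14, so the numbers are taken as names. Under it Ighv1-66 and Igkv4-59 lost their call. The 207 other recomputed values of shares, evenness, families, ratios, medians and counts moved by less than the replicate SD or 1.5 times. For named segments 403 fits were unchanged, 23 moved, 23 lost a call, 11 gained one and 0 called values changed sign. Unchanged here means that a call stayed in its direction or that an uncalled value moved by at most its SE. With 3 libraries a group, no single-value permutation test can go below 0.1, and the scatter of segments between libraries limits what can be resolved.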
